A study of Mus musculus with 16 samples.

Results

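The heme synthesis enzymes were examined in cultured mouse aortic smooth muscle cells through the rows of the count table that carry 1 of 8 gene symbols. These were Alas1 (ENSMUSG00000032786), Alas2 (ENSMUSG00000025270), Alad (ENSMUSG00000028393), Uros (ENSMUSG00000030979), Urod (ENSMUSG00000028684), Cpox (ENSMUSG00000022742), Ppox (ENSMUSG00000062729) and Fech (ENSMUSG00000024588). All 8 were among the 20581 genes of the table and among the 14217 that passed the filter on low counts. Primary cells came from the aortas of C57BL/6J mice with floxed Arg1 and erythropoietin receptor Cre (RBC.ARG1-KO, here KO), and of littermate controls (RBC.ARG1-WT, here WT). The Cre driver belongs to the red blood cell lineage, so the deletion was directed at cells other than those sequenced. Each genotype was kept in DMEM with 10% fetal bovine serum or for 10 days in DIAM, which is DMEM with dexamethasone at 0.1 µM, insulin at 1 µM and L-ascorbic acid at 50 µg/mL, a medium meant to load the cells with lipid. Whether DIAM held serum, and whether the 4 libraries of a group came from separate mice, the sources used here do not say. All libraries carried the label male and 1 batch label, and p-values measure only the spread between these libraries.

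Heme is made by a pathway that begins and ends in the mitochondrion and passes through the cytosol. The ALA synthases join glycine and succinyl-CoA to 5-aminolevulinic acid, the committed and usually limiting step: Alas1 is the form of most tissues and is repressed by heme, whereas Alas2 is the form of developing red cells. Alad then joins 2 molecules of that product to porphobilinogen, Uros closes the ring to uroporphyrinogen III, Urod trims it to coproporphyrinogen, Cpox and Ppox oxidise it to protoporphyrin, and Fech (ferrochelatase) inserts the iron.

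Alas1 and Alas2 were higher in DIAM than in DMEM in both genotypes, Ppox was lower in both, and Uros and Cpox did not pass the test in either. Alad, Urod and Fech passed the test in KO cells, with rises of at most 1.31-fold, and did not pass it in WT cells. Between genotypes, Alas1 in DIAM was the 1 member that passed the test.

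Sequences near the starts of the members that moved in both genotypes are shown, upstream for Alas2 and Ppox and after the start for Alas1. The reason is that the ALA synthase genes are known for unlike promoters, that of Alas2 being read by erythroid factors. The sequences shown are RefSeq sequences of build GRCm38.p6, the build of the reference at hand, while the submitters' processing notes name GRCm39. A window held the 250 bases before an annotated start. The RefSeq table matched 7 of the 8 members, with 2 windows each for Alas1, Alad and Uros and 1 for the others. In Alas2 (chrX:150547167-150547416, plus strand), the capitals mark the sequence AGATAA on the opposite strand at position -86 and CCACCC on the opposite strand at -40, -35 and -30, each sharing 1 base with the next.

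Alas2 promoter: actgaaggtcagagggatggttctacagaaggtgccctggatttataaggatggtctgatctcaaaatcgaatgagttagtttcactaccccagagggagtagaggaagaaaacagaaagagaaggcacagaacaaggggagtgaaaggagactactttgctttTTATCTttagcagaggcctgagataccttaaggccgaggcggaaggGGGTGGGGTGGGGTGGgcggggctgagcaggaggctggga

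AGATAA is the core bound by GATA factors and CCACCC that of Klf factors. AGATAA occurred on either strand in 9.99% of the 32851 RefSeq promoter windows of this length and CCACCC in 28.1%, while 1.78% held CCACCC 3 or more times. Cpox held AGATAA after its start, at position 5. The first window of Alas1 held no AGATAA and CCACCC once, at -228. It had a sequence of the NRF1 type, which reads the same on both strands, at position 30 after the start (chr9:106247906-106247935, minus strand, 30 bases shown with the 10 bases of the match in capitals).

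Alas1 start site: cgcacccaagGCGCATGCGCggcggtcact

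The second window of Alas1 held the same sequence upstream, at -195. It was found in 0.782% of windows, and in 0.971% when the 50 bases after the start were included. Ppox (chr1:171281187-171281436, minus strand) held CCAAT 4 times, at -114, -98, -74 and -45, marked in capitals and on the opposite strand at -98.

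Ppox promoter: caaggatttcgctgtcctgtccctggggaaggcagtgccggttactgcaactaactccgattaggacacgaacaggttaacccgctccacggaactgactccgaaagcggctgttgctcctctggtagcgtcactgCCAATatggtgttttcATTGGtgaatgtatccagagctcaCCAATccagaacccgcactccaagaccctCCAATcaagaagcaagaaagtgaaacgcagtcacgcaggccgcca

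Alad and Urod held CCAAT 1 or 2 times a window. It occurred in 33.8% of windows and at least 4 times in 0.84%. The full glucocorticoid receptor sequence, AGAACA and TGTTCT set 3 bases apart, searched because DIAM holds dexamethasone, was in no window of the 7 members and in 0.00913% of all windows. Its first part, AGAACA, was in Alas2 at -121, in Alad at -226, in the second window of Uros at -183 and in 16.1% of all windows. CACGTG and TGACGTCA were searched as well. CACGTG lay in the first window of Alad at -105, in its second at -28, in Urod at -49 and in the first window of Uros at -250. It was in 6.02% of all windows. TGACGTCA was in no window of the 7 members and in 1.55% of all windows. These matches describe letters only, and binding was not measured.

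Sequencing depth was 37221313 to 47626242 counts per library. Arg1, the targeted gene, was near 0 in every group, with 3 to 4 counts per library in WT DMEM, 2 to 49 in KO DMEM, 0 to 9 in WT DIAM and 1 to 4 in KO DIAM, and these levels check no label because the deletion was aimed at another lineage. Checked against its markers, the labelled cell type was present: all 10 smooth muscle markers passed the filter, among them Cald1 (caldesmon) at 2251 ± 120 CPM in WT DMEM and 1115 ± 75.2 in WT DIAM, and Acta2 (smooth muscle actin) at 1960 ± 247 CPM (SD, n = 4; CPM are TMM-scaled counts relative to the library total) in WT DMEM and 772 ± 167 in WT DIAM. Of these 10 markers, 1 was higher and 5 were lower in DIAM in WT cells, and 2 were higher and 5 lower in KO cells. Myocd (myocardin) was higher, at 3.91 CPM in WT DMEM and 10.0 in WT DIAM. Markers of other cell types were present as well. The 7 adipocyte markers with a row in the table were all higher in DIAM in both genotypes, summing to 113 to 188 CPM in the DMEM libraries and 1529 to 3353 in the DIAM libraries. The 6 macrophage and leukocyte markers summed to 787 to 2247 CPM over all libraries, the 8 fibroblast markers to 3931 to 12010, the 6 endothelial to 36.9 to 93.5, the 6 Schwann cell markers to 27.3 to 600 and the 5 mesothelial to 46.8 to 569. Single genes weighed heavily in such sums. Col1a1, a fibroblast marker, had means of 9272 CPM in WT DMEM and 4466 in WT DIAM, and Lyz2, a macrophage marker, 1193 and 1039. Of the 8 fibroblast markers, 6 were higher in DIAM and 2 lower, Col1a1 among the latter, in each genotype. In such bulk samples a change in the number of cells of a type and a change in RNA per cell cannot be told apart.

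Alas1, the ubiquitous ALA synthase, rose in DIAM in both genotypes. WT libraries held 41.3, 38.6, 40.6 and 42.4 CPM in DMEM and 95.9, 78.0, 102 and 105 CPM in DIAM. KO libraries held 43.8, 45.5, 41.4 and 40.7 CPM in DMEM and 135, 132, 96.8 and 125 CPM in DIAM. Every DIAM library lay above every DMEM library, and the spread among libraries was wider in DIAM. The change was 2.34-fold in WT cells (log2 fold change 1.23 ± 0.10 SE, adjusted p = 3.77e-08) and 2.85-fold in KO cells (1.51 ± 0.10, adjusted p = 2.77e-09), from the edgeR quasi-likelihood fit, whose p-values were adjusted by Benjamini and Hochberg's method over the 14217 genes, as is every adjusted p given below.

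**Figure D1:**
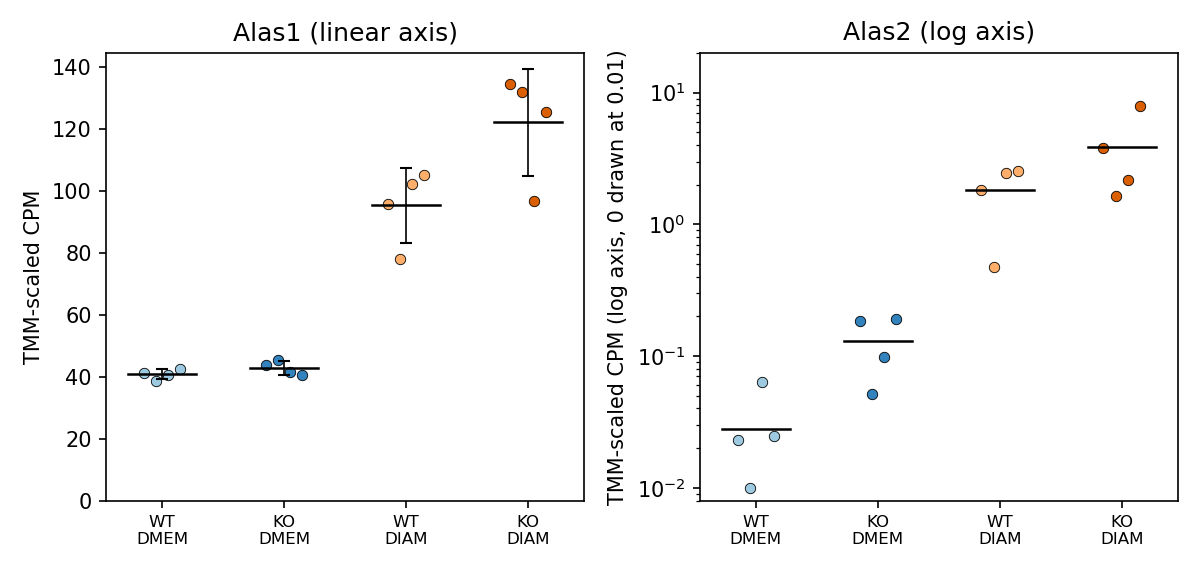
Levels of Alas1 and Alas2 in each library (points, TMM-scaled CPM) by group, with group means as lines, the SD as bars for Alas1 only, and a log axis for Alas2 on which the library at 0 is drawn at the bottom. Alas1 rose from means of 40.7 and 42.9 CPM in DMEM to 95.3 and 122 in DIAM, and Alas2 from at most 0.192 CPM in the DMEM libraries to between 0.474 and 7.95 in DIAM.

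Alas2, the erythroid ALA synthase, was close to undetected in DMEM. The 4 WT libraries held 1, 0, 3 and 1 counts there and the 4 KO libraries 7, 2, 4 and 8; the library at 0 allows up to 0.0775 CPM (3 counts, counting error only). In DIAM the counts were 67, 20, 96 and 95 in WT and 147, 68, 79 and 306 in KO, so that no DIAM library overlapped the DMEM libraries. The levels within DIAM differed by several times between libraries of 1 group, from 0.474 to 2.55 CPM in WT and from 1.65 to 7.95 CPM in KO. The fitted changes, a log2 fold change of 5.81 ± 0.82 in WT (95% interval 4.07 to 7.56, adjusted p = 2.03e-05) and 4.85 ± 0.66 in KO (3.46 to 6.25, adjusted p = 1.03e-05), rest on a DMEM base of only 5 and 21 counts in all. Alas2 passed the filter on low counts only through its DIAM libraries, so some difference was required of it; with no filter it was called in both genotypes as well.

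As a share of the counts of both ALA synthase genes, Alas2 remained small. It made up 0.0676% ± 0.0649 (SD, n = 4) in WT DMEM, 0.309% ± 0.164 in KO DMEM, 1.80% ± 0.829 in WT DIAM and 3.03% ± 2.05 in KO DIAM. These shares are not corrected for exon length, 3959 bases in Alas1 and 2037 in Alas2, and would be larger per base of exon. The highest library was KO DIAM 4 with 5.96% (exact 95% binomial interval 5.33 to 6.65, counting error only), and the lowest DIAM library was WT DIAM 2 with 0.604% (0.369 to 0.931). The counts that came with DIAM were therefore almost all of Alas1.

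Markers of the red cell lineage were at low levels in every library. Of the 13 erythroid markers listed, 5 had a row in the table and 1 passed the filter. That gene, Rhag (Rh-associated glycoprotein), rose from 0.0485 to 1.13 CPM in WT and from 0.0371 to 0.761 in KO cells (adjusted p = 1.73e-06 and 6.04e-06), having passed the filter only through DIAM libraries. The 4 other markers stayed under the filter, with Klf1 (an erythroid transcription factor) at means of 0.114 to 0.201 CPM, Epb42 at 0.0323 to 0.126, Ermap at 0.0423 to 0.349 and Epor (the gene of the Cre driver) at 0.248 to 0.392. Summed over the 5, the level was 0.44 to 1.19 CPM in WT DMEM and 1.61 to 2.27 in WT DIAM, without overlap. In KO cells it was 0.44 to 1.36 in DMEM and 1.09 to 1.89 in DIAM, with overlap. These sums include Rhag, of which the filter required some difference. Rhag alone held 0 to 0.103 CPM in the WT DMEM libraries and 0.965 to 1.31 in WT DIAM. The sums therefore do not describe the 4 other markers. The globin genes, Slc4a1, Ahsp, Kel and Gata1 were not analysed here. Among the KO DIAM libraries the erythroid sum was highest in library 3, at 1.89 CPM with 2.16 CPM of Alas2, while library 4, with 7.95 CPM of Alas2, had a sum of 1.48 CPM. The KO DIAM library 4, highest in Alas2, also had the highest mesothelial sum, 569 CPM. The part of these cell types in the Alas2 level was not tested.

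The cytosolic enzymes moved little. Alad, which forms porphobilinogen, was at 9.33 ± 0.837 CPM in WT DMEM and 9.92 ± 0.5003 in WT DIAM, and at 8.91 ± 0.854 in KO DMEM and 11.7 ± 1.28 in KO DIAM. Its KO libraries read 9.64, 8.77, 7.77 and 9.48 CPM in DMEM and 12.2, 11.0, 10.3 and 13.2 in DIAM, without overlap, and it rose by 0.39 ± 0.10 on the log2 scale in KO cells (adjusted p = 0.00243). In WT cells the log2 fold change was 0.09 (95% interval -0.12 to 0.29, adjusted p = 0.459).

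Uros, the uroporphyrinogen III synthase, did not pass the test in either genotype. Its means were 10.7 ± 0.997, 10.5 ± 1.202, 11.5 ± 0.437 and 11.2 ± 0.575 CPM in WT DMEM, KO DMEM, WT DIAM and KO DIAM. The intervals of its log2 fold change, -0.08 to 0.30 in WT and -0.09 to 0.29 in KO, exclude a change as large as that of Alas1.

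Urod, the uroporphyrinogen decarboxylase, rose in KO cells, from 27.2, 30.1, 31.4 and 30.6 CPM in DMEM to 43.7, 41.2, 37.3 and 34.5 CPM in DIAM, with no overlap (log2 fold change 0.39 ± 0.10, adjusted p = 0.00251). WT libraries held 30.4, 29.3, 33.9 and 33.5 CPM in DMEM and 33.7, 42.8, 30.4 and 37.9 in DIAM. Those WT groups overlapped, and the log2 fold change of 0.19 (95% interval -0.02 to 0.40) did not pass (adjusted p = 0.112). It did pass without WT DIAM library 3, at 0.26 (adjusted p = 0.0276).

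The mitochondrial enzymes at the end of the pathway went in different directions. Cpox, the coproporphyrinogen oxidase, was the steadiest member, at 29.4 ± 1.17, 28.7 ± 1.53, 30.2 ± 1.26 and 30.5 ± 1.84 CPM in the order WT DMEM, KO DMEM, WT DIAM and KO DIAM. Its log2 fold change with DIAM lay between -0.08 and 0.16 in WT and between -0.03 and 0.21 in KO cells (95% intervals).

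Ppox, the protoporphyrinogen oxidase and the next enzyme, fell in DIAM in both genotypes. It read 16.7, 17.8, 15.7 and 19.1 CPM in WT DMEM against 11.8, 11.9, 10.9 and 12.4 in WT DIAM. The KO libraries read 14.6, 18.8, 17.2 and 19.2 CPM in DMEM and 13.4, 11.6, 11.2 and 13.4 in DIAM. Neither genotype's groups overlapped. On the log2 scale Ppox fell by 0.56 ± 0.09 in WT (adjusted p = 9.28e-05) and by 0.49 ± 0.09 in KO cells (adjusted p = 2.70e-04).

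Fech, which completes heme, rose in KO cells, from 88.3, 75.6, 84.7 and 84.8 CPM in DMEM to 98.7, 99.4, 92.4 and 97.3 in DIAM (log2 fold change 0.22 ± 0.05, adjusted p = 0.00242). The WT values were 88.2, 80.7, 86.1 and 76.9 CPM in DMEM and 92.0, 85.8, 89.8 and 89.7 in DIAM, which overlapped, and the log2 fold change of 0.11 (95% interval -0.01 to 0.22) did not pass (adjusted p = 0.107). Without WT DMEM library 1 it passed, at 0.14 (adjusted p = 0.0407).

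**Figure D2:**
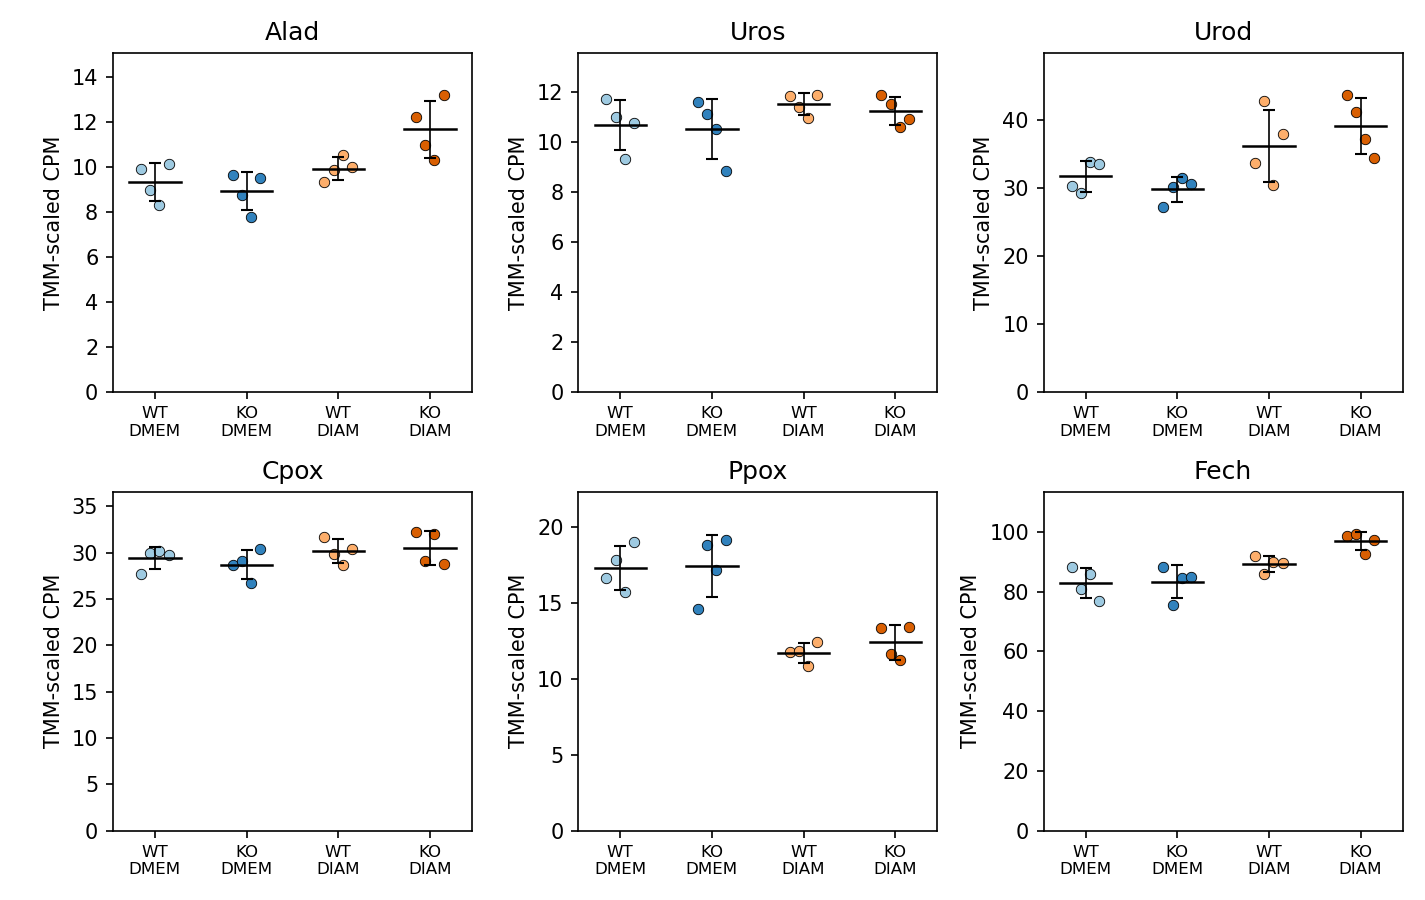
Levels of the 6 enzymes after ALA synthase in each library (points, TMM-scaled CPM), with the mean and SD of each group. Ppox lies lower in both DIAM groups, at means of 11.7 and 12.4 CPM against 17.3 and 17.5 in DMEM, and Cpox stays between means of 28.7 and 30.5.

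In all, DIAM changed 3 of the 8 enzymes in WT cells (2 higher, 1 lower) and 6 of 8 in KO cells (5 higher, 1 lower). Alas2 is in both tallies and in the medians below, although the filter required some difference of it. With a filter at 5 CPM, which removed Alas2, 2 members were called in WT and 5 in KO cells. Over all genes tested, 55.1% changed in WT cells (27.6% higher and 27.5% lower) and 60.7% in KO cells (29.8% higher and 30.8% lower). The share of members called lay below this background in WT cells and above it in KO cells, where more were higher than lower. With only 8 members and no test of the set, nothing is read from these counts. The median log2 fold change of the members was 0.11 in WT and 0.30 in KO cells, beside -0.01 and -0.02 over all genes. Alad, Urod and Fech passed the test in 1 genotype only, but the difference between genotypes in their response, tested as the interaction of genotype and medium, did not pass: 0.30 ± 0.14 for Alad (adjusted p = 0.299), 0.20 ± 0.14 for Urod (0.485) and 0.11 ± 0.08 for Fech (0.489). The same interaction was 0.28 for Alas1 (95% interval -0.01 to 0.58, adjusted p = 0.336) and -0.96 for Alas2 (-3.48 to 1.56, adjusted p = 0.729). No gene of the 14217 passed that test by edgeR (0%), with 2255 at an unadjusted p under 0.05, 1 of them a member (Alad); DESeq2 called 225 genes and the authors' deposited table called 234, none of them a member.

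**Figure D3:**
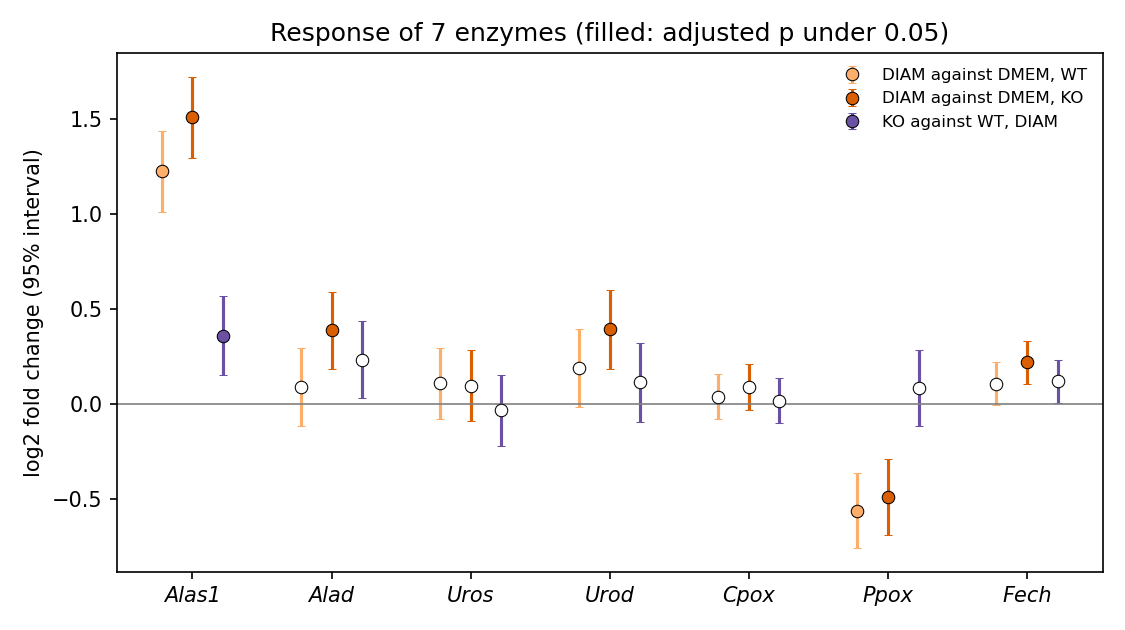
Log2 fold change (vertical axis) of 7 enzymes in pathway order for DIAM against DMEM in WT and in KO cells and for KO against WT in DIAM, with 95% intervals of the edgeR fit and filled points where the test was passed; Alas2 is left out for its scale. Alas1 lies above 0 in the 3 comparisons, Ppox lies below 0 in both medium comparisons, and Uros and Cpox have open points throughout.

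The second comparison asked whether cells from mice without erythroid Arg1 differed from those of their littermates. In DMEM they did not differ detectably in these genes: 0 of the 8 enzymes passed, none reached an unadjusted p under 0.05, and no gene of the whole table passed by edgeR (0%; 438 at an unadjusted p under 0.05), against 1 by DESeq2 and 2 in the authors' deposited table. For Alas1, the interval of the KO to WT ratio in DMEM was 0.909 to 1.22, and for Fech 0.927 to 1.09. Alas2 had 21 counts in the KO and 5 in the WT libraries, an estimate of 2.05 on the log2 scale with an interval from -0.30 to 4.405 (adjusted p = 1), too few counts to place.

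In DIAM, Alas1 was higher in KO than in WT cells, at 122 ± 17.4 against 95.3 ± 12.2 CPM (SD, n = 4). The ratio was 1.28 (95% interval 1.11 to 1.48, log2 fold change 0.36 ± 0.10, adjusted p = 0.0374), and the authors' deposited table gives 0.36 with an adjusted p of 0.0433. Over all genes 8.38% passed (3.43% higher, 4.95% lower), so that 1 member of 8 is close to the background share. The groups overlapped, because KO DIAM library 3, at 96.8 CPM, lay below 2 of the WT libraries. The call was lost in a fit of only these groups, in which no gene of the table passed (adjusted p = 0.114 for Alas1, 3674 genes at an unadjusted p under 0.05). It was also lost when any 1 of 5 of the 8 DIAM libraries was left out: WT DIAM 1 (0.0843), WT DIAM 2 (0.117), KO DIAM 1 (0.109), KO DIAM 2 (0.115) or KO DIAM 4 (0.0649).

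Among the 7 enzymes that did not pass, Fech came nearest to a clean separation. Its KO DIAM libraries, at 92.4 to 99.4 CPM, all lay above the WT DIAM libraries, at 85.8 to 92.0 CPM, yet the difference was 0.12 ± 0.05 on the log2 scale (adjusted p = 0.182). Alas2 stood at 3.89 ± 2.86 CPM in KO and 1.83 ± 0.958 in WT (log2 difference 1.09, 95% interval 0.03 to 2.15, adjusted p = 0.183), and without KO DIAM library 4 the difference was 0.48. The log2 difference was 0.23 for Alad (adjusted p = 0.139), 0.11 for Urod (0.508), 0.08 for Ppox (0.632), 0.02 for Cpox (0.884) and -0.04 for Uros (0.846).

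Within the DIAM cultures, Alas1 followed the adipocyte markers library by library. The 8 libraries fell in the same order by Alas1 as by the summed level of the 7 adipocyte markers. The lowest was WT DIAM 2 (78.0 CPM of Alas1 and 1529 CPM of markers), followed by WT DIAM 1 (95.9 and 2109), KO DIAM 3 (96.8 and 2295), WT DIAM 3 (102 and 2368) and WT DIAM 4 (105 and 2419). KO DIAM 4 (125 and 3059), KO DIAM 2 (132 and 3191) and KO DIAM 1 (135 and 3353) made up the upper end. Fabp4, the fatty acid binding protein of fat cells, gave 57.8% to 67.8% of the marker sum in these libraries. The 1 KO library whose Alas1 fell within the WT range was thus the KO library whose marker sum did so too. Of the 7 markers, Plin1 (the lipid droplet coat protein perilipin 1) passed the test between genotypes in DIAM (126 CPM in WT and 222 in KO, adjusted p = 0.0494) and the other 6 did not, at log2 differences from 0.41 to 0.73. Such an order was not particular to the adipocyte markers. The fibroblast sum ran roughly the other way, from 8808 CPM in WT DIAM 2 and 6780 in WT DIAM 1 to 4339 in KO DIAM 2 and 3931 in KO DIAM 1. That reverse order was not exact, since KO DIAM 3 (4659) lay below WT DIAM 3 (5822) and WT DIAM 4 (6235). The part of adipocyte-type cells or fibroblasts in the genotype difference of Alas1 was not tested.

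**Figure D4:**
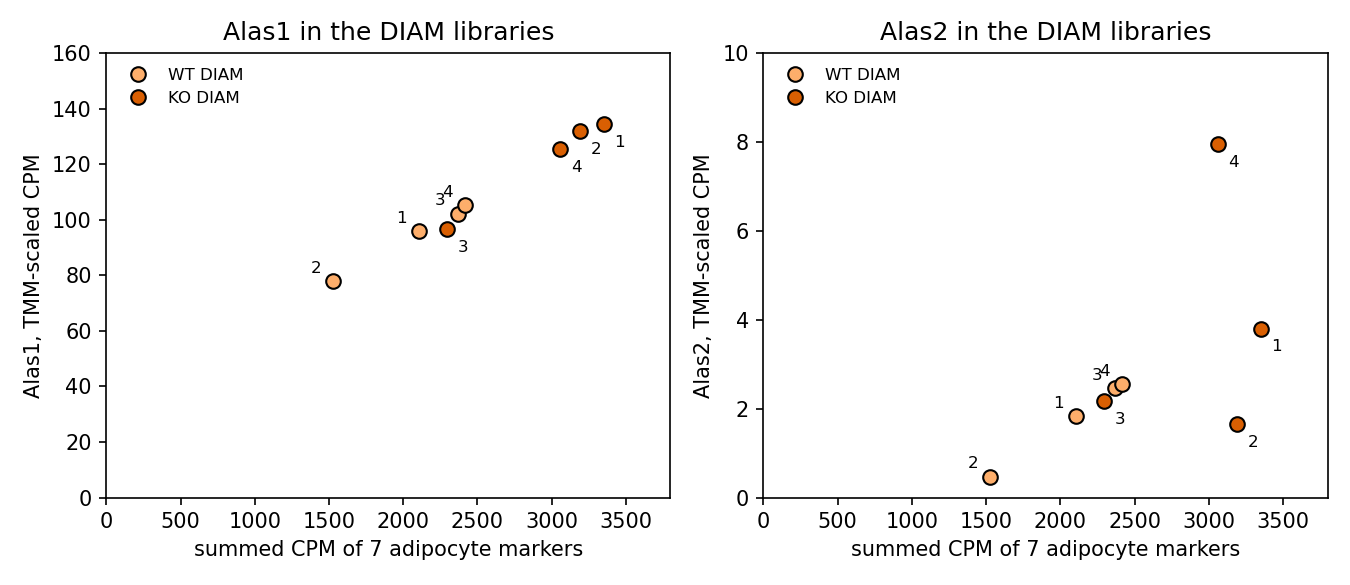
Alas1 (left) and Alas2 (right), in TMM-scaled CPM, against the summed CPM of 7 adipocyte markers in the 8 DIAM libraries, numbered within each genotype. Alas1 and the marker sum give the libraries the same order, from WT 2 (78.0 CPM) to KO 1 (135 CPM), while Alas2 in the KO libraries ranges from 1.65 to 7.95 CPM with no such order.

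Alas2 behaved differently. In the WT DIAM libraries it kept the order of the marker sum, from 0.474 CPM in library 2 to 2.55 in library 4, but in the KO libraries the highest value, 7.95 CPM, belonged to the library with a marker sum of 3059 CPM, and library 2, at 3191 CPM of markers, had the lowest, 1.65 CPM. The summed Schwann cell markers ran the other way between genotypes, at 248 to 600 CPM in WT DIAM and 43.2 to 164 in KO DIAM without overlap, though none of the 5 tested passed between genotypes. Ngfr alone had means of 239 CPM in WT DIAM and 55.7 in KO DIAM. S100b did not follow, at 4.71 and 4.96 CPM.

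To compare levels between enzymes, CPM were divided by the exon length of each gene in kilobases (GENCODE M21 exons of GRCm38). In DMEM, Urod had the highest level per kilobase of exon, 21.3 ± 1.54 in WT and 20.03 ± 1.24 in KO. Fech (11.5 and 11.6), Alas1 (10.3 and 10.8), Ppox (9.52 and 9.58) and Cpox (9.49 and 9.27) followed, with ranges that overlapped from each to the next, and then came Alad (7.34 and 7.01), Uros (4.49 and 4.42) and Alas2. DIAM placed Alas1 beside Urod: the level per kilobase was 24.1 ± 3.08 for Alas1 and 24.3 ± 3.59 for Urod in WT, and 30.9 ± 4.38 and 26.3 ± 2.76 in KO, with overlapping ranges in each genotype. Ppox moved below Alad, at 6.44 against 7.80 in WT and 6.82 against 9.17 in KO, without overlap. Alas2 stayed last at 0.898 and 1.91.

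The library kit did not mark strand, and 5 of the 8 enzymes share bases with a gene on the opposite strand. Genes were taken here from start to end, introns included. Where exons overlap, the reads of such a pair cannot be told apart. Whether exons overlap, and how many reads are shared, was not measured. Ppox overlaps B4galt3 (a galactosyltransferase), which fell as well, from 23.5 to 13.3 CPM in WT and from 24.5 to 13.8 in KO cells (adjusted p = 1.24e-07 and 8.78e-08). Alas2 overlaps Apex2 (a DNA repair nuclease), at 7.58 CPM in WT DMEM and 8.57 in WT DIAM (adjusted p = 0.196), which rose in KO cells from 6.96 to 9.67 (adjusted p = 0.00163). Uros overlaps Bccip, which did not pass in either genotype. Alas1 overlaps a predicted antisense gene that stayed at means of 0.123 to 0.209 CPM, and Cpox overlaps Gpr15, not analysed here. Alad, Urod and Fech overlap no annotated gene.

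The genes whose levels were most like those of Alas1 across all 16 libraries, among 10574 genes at a mean of 5 CPM or more, were Bcat2 (mitochondrial branched-chain aminotransferase), Hibch (a hydrolase of valine breakdown), Gstz1 (maleylacetoacetate isomerase) and Mccc1 (a subunit of methylcrotonyl-CoA carboxylase). Pearson's r of log2(CPM + 0.5) was 0.995, 0.995, 0.995 and 0.994; it is given as a description, since the libraries share the medium contrast. Bcat2 rose from 33.7 to 109 CPM in WT and from 33.8 to 150 in KO cells, and in DIAM it was higher in KO (adjusted p = 0.0152), as were Hibch (0.0286) and Gstz1 (0.012) but not Mccc1 (0.0754). Those most like Alas2 were Psen2 (presenilin 2), Ncoa4 (the receptor for autophagy of ferritin), Nfyc (a subunit of the CCAAT-binding factor) and Naa25 (an N-terminal acetyltransferase subunit), with r of 0.967, 0.962, 0.960 and 0.959. Between the members themselves, r was 0.94 for Alas1 and Alas2, 0.80 for Alas1 and Fech, -0.85 for Alas1 and Ppox and 0.40 for Alas1 and Cpox.

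The genes that supply the pathway were followed in 5 lists, counted against the same background of 55.1% called in WT and 60.7% in KO cells. Of 19 genes of mitochondrial transport and supply, 10 rose and 3 fell in WT and 11 rose and 5 fell in KO cells. Fdx1 (a mitochondrial ferredoxin) rose from 13.2 ± 1.15 to 28.3 ± 1.53 CPM in WT and from 13.1 to 29.4 in KO, Abcb6 (a porphyrin transporter) from 11.1 ± 0.648 to 21.04 ± 1.71 and from 11.2 to 23.2, and Slc25a28 (mitoferrin 2, the mitochondrial iron importer of non-erythroid cells) from 6.95 ± 0.323 to 12.1 ± 0.763 and from 7.60 to 12.7. The adjusted p of these 3 in WT cells were 4.54e-08, 2.48e-07 and 4.68e-07. Slc25a37, the mitoferrin of erythroid cells, stood at means of 21.5, 25.0, 24.7 and 18.4 CPM in WT DMEM, KO DMEM, WT DIAM and KO DIAM; it was picked for its relation to Slc25a28 after its values were seen.

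**Figure D5:**
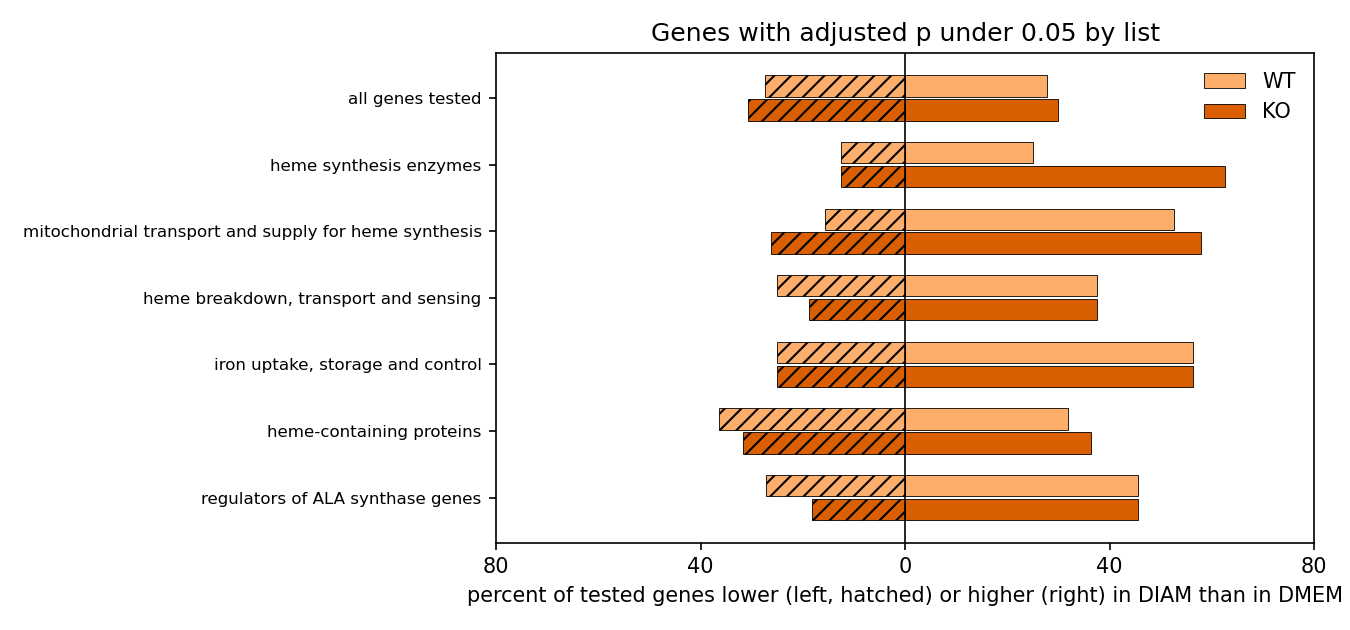
Percent of the tested genes of each of 6 lists, and of all genes tested, that were higher (right) or lower (left, hatched) in DIAM than in DMEM, in WT and KO cells. Every list shown holds both directions; as counts, the iron list has 9 higher and 4 lower of 16 in both genotypes and the list of heme-containing proteins 7 higher and 8 lower of 22 in WT.

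Heme breakdown, transport and sensing gave 6 higher and 4 lower of 16 genes in WT and 6 and 3 in KO cells. Hmox1, the heme oxygenase that opens the heme ring, rose from 181 ± 10.2 to 353 ± 43.4 CPM in WT and from 195 to 371 in KO, and Abcg2 (an exporter of heme and porphyrins) from 35.5 ± 2.78 to 98.3 ± 5.84 and from 31.6 to 99.3. Pgrmc2, a heme-binding chaperone, fell from 152 ± 9.78 to 109 ± 7.98 and from 148 to 120. Hmox1 thus moved with Alas1, the gene for the first step of synthesis, in both genotypes (adjusted p = 1.83e-07 in WT and 2.37e-07 in KO).

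Iron handling gave 9 higher and 4 lower of 16 genes in each genotype. Fth1, the ferritin heavy chain that stores iron, rose by 1.25 ± 0.07 on the log2 scale in WT and 1.27 ± 0.07 in KO cells. Cp (ceruloplasmin, a ferroxidase) rose from 81.2 ± 22.8 to 677 ± 75.8 CPM in WT and from 91.8 to 729 in KO, and Steap4 (a metalloreductase) from 18.1 ± 4.41 to 135 ± 14.9 and from 21.97 to 160. The transferrin receptor Tfrc, named here after its values were seen because it is the main route of iron entry, was at 40.4 and 45.7 CPM in WT (adjusted p = 0.248) and rose from 38.9 to 51.3 in KO cells (0.0124).

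Proteins that carry heme went both ways, with 7 higher and 8 lower of 22 tested in WT and 8 and 7 in KO cells. Cyb5a (cytochrome b5) rose from 123 ± 0.517 to 288 ± 19.5 CPM in WT and from 125 to 337 in KO. Fads1 and Fads2, fatty acid desaturases with a cytochrome b5 domain, fell from 268 ± 14.3 to 151 ± 7.95 and from 157 ± 13.3 to 65.6 ± 3.86 CPM in WT, and from 260 to 148 and 159 to 70.0 in KO.

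Known regulators of the ALA synthase genes gave 5 higher and 3 lower of 11 tested in WT and 5 and 2 in KO cells. Ppargc1a, a coactivator that drives Alas1 in liver, rose from 0.794 ± 0.237 to 4.18 ± 0.985 CPM in WT and from 0.759 to 5.97 in KO (adjusted p = 6.04e-06 and 5.11e-07). Nr1d2, a heme-binding repressor of the clock, fell from 81.0 ± 5.82 to 45.9 ± 2.75 and from 82.1 to 43.5, and Ppara (a fatty acid receptor) rose from 1.07 ± 0.197 to 2.93 ± 0.328 and from 1.25 to 3.83. Klf1, an erythroid regulator, stayed under the filter, and Gata1 was not analysed here. Gata2 and Nrf1 were named after their values were seen, because of the sequences printed above. Gata2 had means of 9.62 CPM in WT DMEM and 12.3 in WT DIAM, and Nrf1 of 17.3 and 17.4. Neither passed in WT cells (adjusted p = 0.106 and 0.874).

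Between genotypes in DIAM, where 8.38% of all genes passed, 3 of the 19 supply genes were higher in KO and 1 lower. Clpx, the mitochondrial unfoldase that activates ALA synthase and takes part in its removal, was higher in KO (49.5 ± 6.56 in WT and 63.8 ± 4.30 CPM in KO, adjusted p = 0.0246), as were Sucla2, a subunit of the enzyme that handles succinyl-CoA (80.0 and 97.8 CPM, 0.0185), and Iscu, the iron-sulfur scaffold (104 and 121 CPM, 0.0476). Shmt2, which makes glycine in mitochondria, was lower (49.0 and 41.1 CPM, 0.0177). Of the heme-containing proteins, Cat (catalase, 171 and 237 CPM, 0.012), Cyc1 (cytochrome c1, 86.9 and 113 CPM, 0.0319) and Cyb5a (288 and 337 CPM, 0.0362) were higher in KO and Nox4 lower (143 and 104 CPM, 0.0252). The iron exporter Slc40a1 was higher (1.88 and 3.57 CPM, 0.0409) and the metal importer Slc39a14 lower (178 and 109 CPM, 0.0179), and Bach1, the heme-sensing repressor, was lower (69.0 and 56.9 CPM, 0.0474). Both DIAM means of Slc40a1 lay below its DMEM means, 6.22 CPM in WT and 7.39 in KO. Its DIAM groups overlapped, with KO DIAM library 3 at 2.11 CPM and WT DIAM library 1 at 2.24. None of the 11 regulators passed. These genes are named as the complete set of those that passed in the 5 lists, chosen after their values were seen, and all of these calls were lost in the fit of only the 2 DIAM groups, where no gene of the table passed.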

How the data were processed

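Total RNA of 16 libraries, 4 per group, was sequenced after ribosomal depletion with an unstranded kit, per the labels' protocols. Per the submitters' processing notes, the authors' tools were Salmon 1.9.0, R 4.4.2, DESeq2 1.46.0 and FastQC, and the genome build was GRCm39. The labels call the deposited values TPM, but the columns sum to 37221313 to 47626242 after rounding, so they were taken as estimated counts deposited by the authors and rounded to whole numbers. The authors' deposited table also gives log2 fold changes, p-values and adjusted p-values for 4 comparisons, used only where named, and a mean normalised signal per gene from the authors, which was not used. No column of per-sample values was left unmapped.

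Genes with at least 1 CPM in at least 4 libraries were kept (14217 of 20581, at least 99.8% of each library's counts). The test was the two-sided quasi-likelihood test of edgeR 4.0.16 (R 4.3.3; TMM scaling, robust, 1 model over 4 groups, 12 residual degrees of freedom), with Benjamini-Hochberg adjustment over all genes kept and a threshold of 0.05. Standard errors were taken as the absolute log2 fold change over the square root of F. The code was tested on simulated data. Alternatives were DESeq2 1.42.0, limma 3.58.1 on log2(CPM + 1), median-ratio size factors, a stricter filter (5 CPM) or none, fitting just the groups compared, blocking on replicate number, leaving out each library, and the authors' values.

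The members and lists were chosen with earlier results of these data known. The genes named were all members, from each pathway list the 3 of smallest p in WT cells, from the marker lists the genes near 0 and the most abundant (shortened here to the erythroid and smooth muscle lists and Fabp4), and the 4 genes most like Alas1 and Alas2; further genes are marked in the text. Of the lists, 1 heme-containing protein, 1 regulator, 8 erythroid, 3 adipocyte and 2 leukocyte genes were not analysed here, and 2 further erythroid markers are not reported here. Counts per library measure these libraries, and the labels' protocols speak of triplicates where 4 libraries per group were analysed. Promoter sequences came from RefSeq tables and exon lengths from GENCODE M21.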

Additional observations from a re-analysis of the deposited data

How the results depend on the processing

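The direction and call of Alas1, Alas2 and Ppox with DIAM in both genotypes, and of Alad, Urod and Fech in KO cells, held under every alternative that kept the gene; a filter at 5 CPM removed Alas2 and left 2 members called in WT and 5 in KO cells. On the log2(CPM + 1) scale of limma the change of Alas2 was 1.38 in WT and 1.95 in KO cells, since that scale understates low genes. The number of members called by medium was 3 to 4 in WT and 6 in KO cells with a library left out.

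Among the calls that changed, the genotype difference of Alas1 in DIAM was under the threshold in 17 of 24 alternatives, with adjusted p from 0.00948 to 0.117. The 24 include the runs without a DMEM library, which is not part of this comparison, and all of those passed (0.0395 to 0.0463). With every library kept, 6 of 8 alternatives passed. The count of members called between genotypes in DIAM became 0 in the fit of only the groups compared and ranged from 0 to 1 with a library left out. The cause was not tested.

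The labels do not say that a replicate number marks a shared source, and the numbers did not meet the criterion for pairing, a correlation above 0.1 in every pair: 12 of 24 same-numbered pairs passed it (-0.22 to 0.37) and 13 of 72 differently numbered ones (-0.34 to 0.30), and 2 of 16 libraries correlated best with their own number in every other group. A replicate block gave 3, 6, 0, 1 and 0 members called for medium in WT, medium in KO, genotype in DMEM, genotype in DIAM and the interaction. Under the block the member called between genotypes in DIAM was Alas2 (1.07, adjusted p = 0.0479) and no longer Alas1 (0.36, 0.0503). It called 8047, 8800, 0, 1191 and 0 genes in all, within 1.5 times of the counts without it.

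Some values that never passed the test changed sign. The interaction of Alas2 went from -0.96 to 0.57 by limma; the others lay near 0, such as Fech between genotypes in DMEM without a filter (-0.00103) and the interaction of Uros in the authors' deposited table (0.00538). With a library left out, the genotype difference in DMEM ran from -0.118 to 0.00165 for Alad, -0.0847 to 0.0513 for Uros, -0.0623 to 0.00782 for Cpox, -0.0371 to 0.0905 for Ppox and -0.0285 to 0.0503 for Fech, that of Cpox in DIAM from -0.0102 to 0.0509 and the interaction of Uros from -0.0865 to 0.0584. Genotype calls over all genes in DIAM numbered 1191 by edgeR, 1873 by DESeq2, 1810 in the authors' deposited table and 0 in the fit of only the groups compared. Depth limits Alas2 in DMEM, at 0 to 8 counts a library.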
